A study of Homo sapiens with 8 samples.

Results

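The genes described here are those of the potassium channel family whose symbols begin with KCN and end in a number. The symbol pattern (KCN, one or more letters, then digits only) was applied to the table of gene counts and matched 95 of 26760 genes. All 95 match a protein-coding gene of GENCODE 29. The family name holds for most of them in the sense of pore-forming subunits, but the pattern also takes in proteins that form no pore: 16 are auxiliary subunits, among them KCNE3, and 10 are silent modifier subunits that act only together with another pore subunit. Antisense and other non-coding transcripts named after these genes, such as KCNQ1OT1, do not match it.

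The counts came from RNA sequencing of 8 libraries of LK2, an established human lung squamous carcinoma cell line, in 4 groups of 2. Constitutive DNp63 cells carried the lentiviral vectors pLEX_306-DNp63 (replicate 1) and pLEX_307-DNp63 (replicate 2). DNp63 is the form of the transcription factor p63 without its N-terminal activation domain. Their controls, the GFP cells, carried pLEX_306-GFP and pLEX_307-GFP. Induced cells carried pLIX_403-DNp63 and were kept with doxycycline at 2 µg per ml for 6 days, and uninduced cells carried the same vector and were kept without the drug. All 4 groups thus carry an integrated vector, no group is untransduced LK2, and the drug was given to induced cells only, so doxycycline and DNp63 cannot be told apart in that system. The p-values rest on the spread between libraries within groups, with 1 estimate shared by all 4 groups. A p-value of either system thus also carries the spread of the other system. In the constitutive groups the 2 libraries carry different vectors, so replicate and vector cannot be told apart and the spread includes both. Whether the 2 libraries of an inducible group are separate cultures is not stated in the labels, so their spread may be technical. In bulk RNA, fewer cells expressing a gene and less RNA per cell cannot be told apart.

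Potassium channels let potassium leave or enter the cell along its electrochemical gradient and thereby set the membrane potential. Voltage-gated channels are assembled from pore subunits and open on depolarisation, inward rectifiers and two-pore domain channels carry resting currents, and a further class opens with intracellular calcium or sodium. In epithelia, potassium exit provides the driving force for chloride and fluid secretion, and the small membrane protein KCNE3 is known there as the partner that keeps the KCNQ1 channel open.

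Library totals ranged from 2758158 to 10372248 counts. TP63, the overexpressed gene, had 6475 and 19672 counts in constitutive DNp63 libraries against 2 and 9 in GFP libraries, and 3339 and 2146 in induced libraries against 63 and 152 in uninduced libraries. TP63 counts can include reads of the vector. Of 12 squamous markers, 7 rose in the averaged comparison defined below, and the list's summed level was 2400.8 and 2156 CPM with constitutive DNp63 against 1326 and 1095 with GFP, and 791 and 728 induced against 758 and 752 uninduced. CPM is the count scaled to the TMM-adjusted library size in the usual way. KRT5, a defining keratin of squamous cells, was at 398 and 18.8 CPM with constitutive DNp63 against 0.369 and 0.635 CPM with GFP, and at 0.494 and 0.393 CPM induced against 0.201 and 0 CPM uninduced, so this marker was almost absent from 6 of the 8 libraries. Summed immune markers were between 0.494 and 4.29 CPM in all libraries, endothelial markers between 0.194 and 2.54 CPM and fibroblast markers between 8.40 and 30.8 CPM.

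Most of the family was silent or nearly so. No count in any library was found for 23 members, among them the neuronal and cardiac pore subunits KCNA1, KCND3 and KCNQ3, and a further 29 had 1 to 9 counts over all 8 libraries. Another 17 had 10 or more counts but too few to be tested. The remaining 26 passed the filter, which asks for about 2.00 CPM in at least 2 libraries. Of these, 16 reached that level in all 8 libraries and 1, KCNK2, reached it in the 2 GFP libraries alone. At this depth 3 counts in a library correspond to 0.292 to 1.11 CPM, so values below that rest on fewer than 3 counts, and a member without a count may still be expressed at such a level. Constitutive DNp63 libraries had 55 and 55 members with at least 1 count against 45 and 43 in GFP libraries, and induced libraries had 40 and 42 against 46 and 44 in uninduced libraries. Over the whole table the numbers of genes with a count were 15244 and 15660 with constitutive DNp63 against 14663 and 14955 with GFP, and 14137 and 15115 induced against 14886 and 15720 uninduced.

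The family's RNA was dominated by KCNE3 in the control cells and less so with DNp63. KCNE3 made up 15.8% (95% exact binomial limits 13.9 to 17.8) and 17.8% (16.0 to 19.7) of all KCN counts in constitutive DNp63 libraries, against 60.3% (58.5 to 62.1) and 62.1% (60.8 to 63.4) in GFP libraries. In induced libraries it made up 36.4% (34.97 to 37.9) and 33.3% (31.5 to 35.1), against 53.0% (51.4 to 54.6) and 51.8% (50.7 to 52.9) in uninduced libraries. The limits cover counting error only. The summed level of the whole family was 402 and 336 CPM with constitutive DNp63 against 1062 and 1081 CPM with GFP, and 524 and 554 CPM induced against 781 and 798 CPM uninduced. Without KCNE3 the sums were much closer, at 338 and 276 CPM with constitutive DNp63 against 422 and 410 CPM with GFP, and 333 and 369.8 CPM induced against 367 and 385 CPM uninduced. The lower family sum with DNp63 is thus mostly the lower KCNE3 level.

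**Figure D1:**
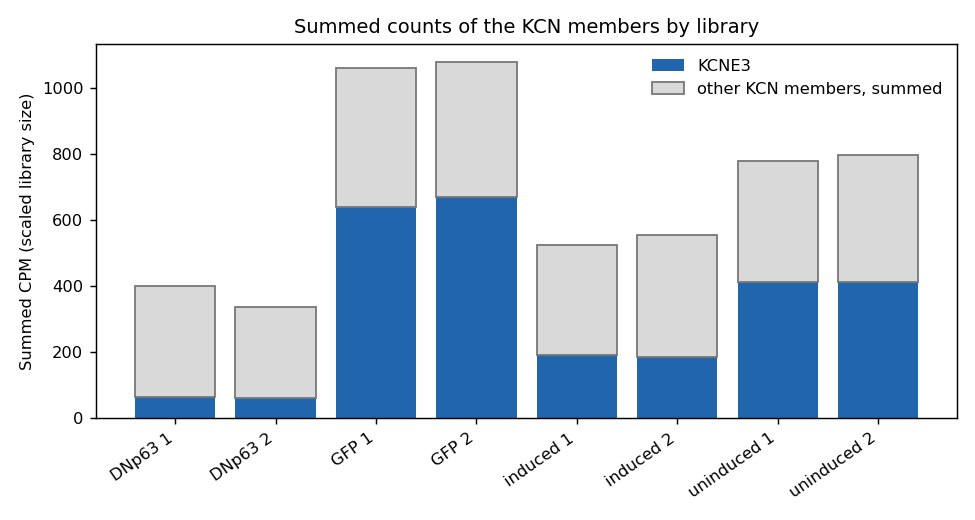
Summed CPM of the KCN members in each of the 8 libraries, as stacked bars with KCNE3 in blue and all other members in grey. The blue part shrinks to 63.4 and 59.7 CPM in the constitutive DNp63 libraries, against 639.9 and 671 CPM in the GFP libraries, while the grey part lies between 276 and 422 CPM throughout.

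DNp63 was compared with its own control in each system and averaged over both systems, with edgeR's quasi-likelihood test and Benjamini-Hochberg adjustment over 12303 genes. In the averaged comparison 5 of the 26 tested members were called at an adjusted p below 0.05, with 4 lower and 1 higher, while 5.67% of all tested genes were called, 2.41% as lower and 3.26% as higher. The lower ones were KCNE3, KCNG3, KCNB2 and KCNS3, and the higher one was KCNG1. The median log2 fold change of the tested members was −0.35 beside −0.01 for all tested genes. Since the filter keeps low members through the group in which they are high, neither the count nor the median speaks for the 95 genes as a family.

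**Figure D2:**
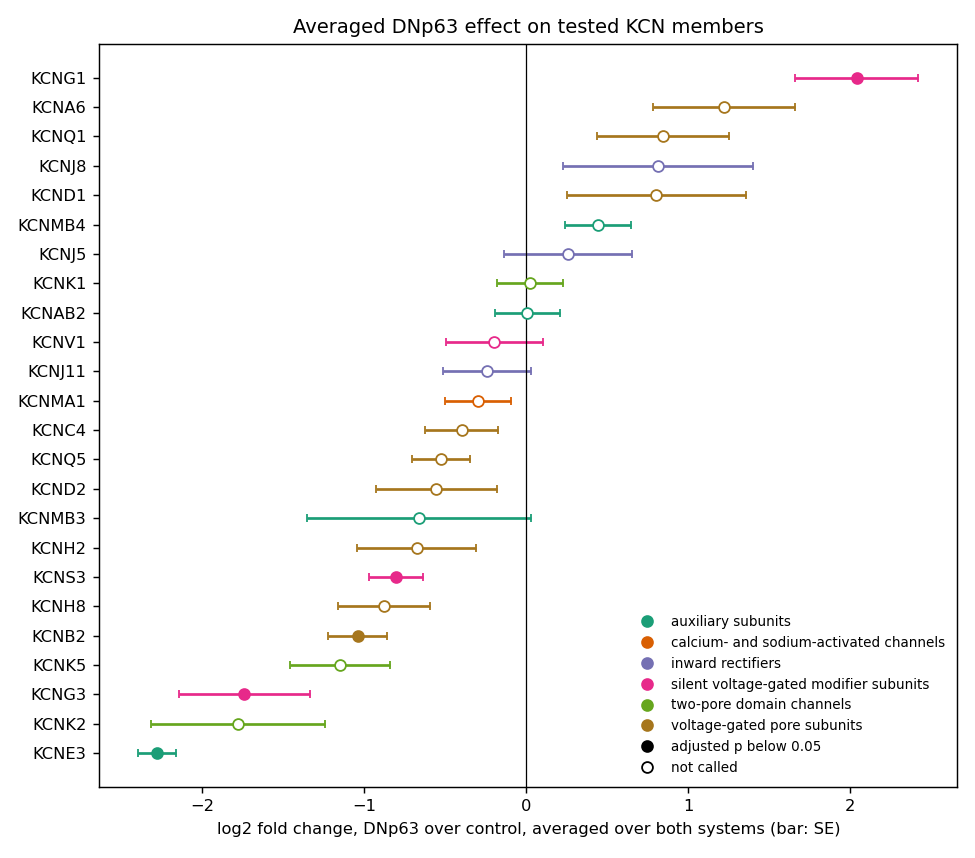
Averaged log2 fold change (DNp63 over control, with SE) of the tested members described in the text, coloured by role, with filled symbols for those at an adjusted p below 0.05. KCNN4 is not drawn because one group has no count. KCNE3 stands lowest at −2.28 and KCNG1 highest at 2.04.

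KCNE3, a single-pass auxiliary subunit, fell in both systems and is the member with the smallest p. It was at 63.4 and 59.7 CPM in constitutive DNp63 libraries against 639.9 and 671 CPM in GFP libraries. In induced libraries it was at 191 and 185 CPM against 414 and 413 CPM in uninduced libraries. Both DNp63 groups lay below their own controls with no overlap, and the 2 libraries of a group were close together. The log2 fold change was −3.41 ± 0.17 (SE, n = 2 per group) with constitutive DNp63, at an adjusted p of 6.63e-06, which is 0.0939 times the GFP level. With induced DNp63 it was −1.14 ± 0.17, at an adjusted p of 0.0226, or 0.454 times the uninduced level. The averaged value was −2.28 ± 0.12 (adjusted p = 3.66e-06). Leaving out any 1 of the 8 libraries ended neither the averaged nor the constitutive call. The induced call was lost without any 1 of the inducible libraries, which leaves 1 library in a group. Its value stayed between −1.16 and −1.12 in all alternatives. Fitted to the 4 inducible libraries alone, the induced fall was called (edgeR, adjusted p = 9.85e-10). In the GENCODE annotation KCNE3 shares 16.6% of its exon length with AP001372.3, an antisense transcript that is not among the counted genes. Without the strand setting of the counting, reads of AP001372.3 in the shared part cannot be told apart from those of KCNE3. Their part in the KCNE3 counts was not tested.

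The fall of KCNE3 differed in size between the systems. The induced effect minus the constitutive effect was 2.27 ± 0.24 on the log2 scale (edgeR interaction contrast, adjusted p = 0.00456). KCNE3 was the only 1 of the 26 tested members called in this contrast, in which 0.545% of all tested genes were called. TP63 itself was at 1850 and 3816 CPM in constitutive DNp63 libraries and at 412 and 422 CPM in induced libraries, and its part in the difference was not tested. The call was lost without uninduced replicate 1 (adjusted p = 0.0777) or 2 (0.119) and without induced replicate 1 (0.118) or 2 (0.102). Taken vector by vector, the log2 ratio of constitutive DNp63 to GFP was −3.33 for pLEX_306 and −3.49 for pLEX_307, so the change was of like size with both vectors. The control groups also stood apart, at 414 ± 0.419 CPM (SD, n = 2) uninduced against 656 ± 22.2 CPM with GFP, but with a log2 value of −0.66 ± 0.16 this gap missed the threshold (edgeR, adjusted p = 0.274). TP63 was at 12.7 and 14.8 CPM uninduced against 0.739 and 1.91 CPM with GFP, and its part in this gap was not tested.

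The other KCNE genes, which encode small subunits of the same kind, were close to absent. KCNE1, KCNE2, KCNE4 and KCNE5 had 1 to 9 counts each over the 8 libraries. KCNQ1, the epithelial partner of KCNE3, was low, at 3.72 and 3.69 CPM with constitutive DNp63 against 2.96 and 0.847 CPM with GFP, and at 4.69 and 4.33 CPM induced against 3.02 and 2.92 CPM uninduced. Its levels lay above the control in both systems without overlap, yet the averaged log2 value of 0.85 ± 0.41 did not pass the test (edgeR, adjusted p = 0.29). KCNQ1 shares 2.7% of its exon length with the antisense transcript KCNQ1OT1. Without the strand setting of the counting, reads of KCNQ1OT1 in the shared part cannot be told apart from those of KCNQ1.

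Per kilobase of exon, the order of the members was led by KCNE3 in every group. With exon lengths of GENCODE 29, which is not the annotation of the counts, its mean was 16.7 CPM per kb with constitutive DNp63 against 178 with GFP, and 51.0 induced against 113 uninduced. KCNS3 came second in all 4 groups, at 11.2 with constitutive DNp63 against 26.5 with GFP and 22.8 induced against 29.3 uninduced. KCNK1, a two-pore domain channel, followed them in all 4 groups, at 9.90 with constitutive DNp63 against 10.6 with GFP and 9.89 induced against 8.79 uninduced. KCNMA1 and KCNC4, with exon lengths of 35644 and 25042 bases in that annotation, rank lower per kilobase than by CPM.

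The members whose levels over the 8 libraries were most like those of KCNE3, by Pearson correlation of log2 CPM, were KCNG3 (r = 0.98), KCNB2 (r = 0.98) and KCNK5 (r = 0.91). These correlations describe 8 libraries in 4 groups that share the same contrasts, and carry no test. Promoters are shown for KCNE3 and for the 2 of these that have a printable entry, as the stretch of 250 bases before the start in RefSeq's GRCh38.p14 table, 5′ to 3′ on the gene's strand. They lie at chr11:74467550-74467799 (KCNE3), chr2:42493983-42494232 (KCNG3) and chr6:39229476-39229725 (KCNK5), all on the minus strand. Capitals mark CATG, the most common core of a p63 half-site, which reads the same on both strands.
KCNE3: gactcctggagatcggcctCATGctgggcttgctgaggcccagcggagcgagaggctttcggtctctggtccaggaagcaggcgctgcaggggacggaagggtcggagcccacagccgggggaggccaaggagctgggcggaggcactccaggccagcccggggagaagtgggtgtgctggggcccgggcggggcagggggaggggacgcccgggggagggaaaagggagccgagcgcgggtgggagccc
KCNG3: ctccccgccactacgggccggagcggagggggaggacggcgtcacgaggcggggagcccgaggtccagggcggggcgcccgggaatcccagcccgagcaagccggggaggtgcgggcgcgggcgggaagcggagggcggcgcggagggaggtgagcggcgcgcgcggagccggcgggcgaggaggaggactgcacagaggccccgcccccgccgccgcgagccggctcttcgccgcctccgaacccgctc
KCNK5: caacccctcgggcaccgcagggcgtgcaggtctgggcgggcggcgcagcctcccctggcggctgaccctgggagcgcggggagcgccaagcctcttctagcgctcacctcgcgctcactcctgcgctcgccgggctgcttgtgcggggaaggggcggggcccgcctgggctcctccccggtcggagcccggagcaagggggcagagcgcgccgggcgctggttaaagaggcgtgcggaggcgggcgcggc
KCNE3 holds 1 CATG in this window, and KCNG3 and KCNK5 hold none. The looser pattern CNNGNNNNNNCNNG, which has the spacing of a full p63 site, occurs 4, 7 and 9 times in the 3 windows, counted at every start and overlapping. Among 35116 RefSeq promoters of the same length, 47.6% hold CATG and 68.6% hold the looser pattern at least 1 time. Holding either pattern thus does not set these genes apart. Whether 4, 7 or 9 occurrences are usual was not tested. All 3 windows are rich in G and C, at 73.2%, 80.8% and 77.2%.

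Among voltage-gated pore subunits, 10 of 30 were tested and 1 was called in the averaged comparison, KCNB2, which encodes a delayed rectifier. KCNB2 was at 13.7 and 9.31 CPM with constitutive DNp63 against 32.1 and 34.9 CPM with GFP, and at 19.0 and 18.1 CPM induced against 25.8 and 27.4 CPM uninduced. Every DNp63 library lay below every library of its control. The averaged log2 fold change was −1.04 ± 0.18 (SE, n = 2 per group; edgeR, adjusted p = 0.00762), with −1.56 ± 0.26 for constitutive DNp63 (adjusted p = 0.00564) and −0.52 ± 0.25 for induced DNp63, which did not pass the test (adjusted p = 0.858). The averaged call was lost without uninduced replicate 2 (adjusted p = 0.0592) or induced replicates 1 (0.0585) or 2 (0.0534).

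The silent modifier subunits of the KCNF, KCNG, KCNS and KCNV groups form no channel of their own and are known to assemble with pore subunits of the KCNB kind. Of 10 such genes 4 were tested, of which 2 fell and 1 rose in the averaged comparison. KCNS3 was at 41.4 and 28.9 CPM with constitutive DNp63 against 90.9 and 74.8 CPM with GFP, and at 61.9 and 80.7 CPM induced against 89.2 and 94.1 CPM uninduced. Its averaged log2 fold change was −0.80 ± 0.16 (edgeR, adjusted p = 0.0184), with −1.24 ± 0.24 constitutive (0.0108) and −0.37 ± 0.23 induced (0.945). Leaving out any 1 inducible library ended the averaged KCNS3 call, at adjusted p values of 0.13 and 0.0542 without induced replicates 1 and 2 and of 0.0816 and 0.103 without uninduced replicates 1 and 2.

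KCNG3 was a low transcript that almost vanished with constitutive DNp63. It had 3 and 3 counts in constitutive DNp63 libraries against 15 and 29 in GFP libraries, or 0.857 and 0.582 CPM against 5.54 and 6.14 CPM. In induced libraries it was at 2.47 and 2.16 CPM against 2.82 and 3.50 CPM in uninduced libraries. The averaged log2 fold change was −1.74 ± 0.40 (edgeR, adjusted p = 0.0252), with −3.03 ± 0.64 constitutive (0.0113) and −0.45 ± 0.48 induced (0.991). The averaged KCNG3 call depended on 6 of the 8 libraries. Its adjusted p was 0.0564 without DNp63 replicate 2, 0.0807 without GFP replicate 2, 0.0835 and 0.0718 without induced replicates 1 and 2, and 0.0904 and 0.153 without uninduced replicates 1 and 2. The constitutive call was lost without GFP replicate 2 (0.0657).

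KCNG1, of the same subfamily as KCNG3, moved the opposite way. It was at 29.1 and 10.1 CPM with constitutive DNp63 against 2.96 and 1.91 CPM with GFP, and at 7.16 and 7.28 CPM induced against 3.82 and 3.21 CPM uninduced. The DNp63 libraries were above their controls in both systems, with constitutive replicate 1 far above replicate 2. The averaged log2 fold change was 2.04 ± 0.38 (edgeR, adjusted p = 0.0099), with 3.03 ± 0.57 constitutive (0.00848) and 1.05 ± 0.50 induced (0.856). The constitutive value was 2.099 without DNp63 replicate 1 and 3.63 without DNp63 replicate 2. Both the averaged and the constitutive call were lost without GFP replicate 2 (0.0611 and 0.0939), and the averaged call also without uninduced replicate 2 (0.0654) or induced replicate 1 (0.0609). KCNG1 shares 8.0% of its exon length with AL050404.1, an antisense transcript that is not among the counted genes. Without the strand setting, reads of AL050404.1 in the shared part cannot be told apart from those of KCNG1. The fourth tested silent subunit, KCNV1, had a log2 value of −0.20 ± 0.30 and did not pass the test (adjusted p = 0.794).

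**Figure D3:**
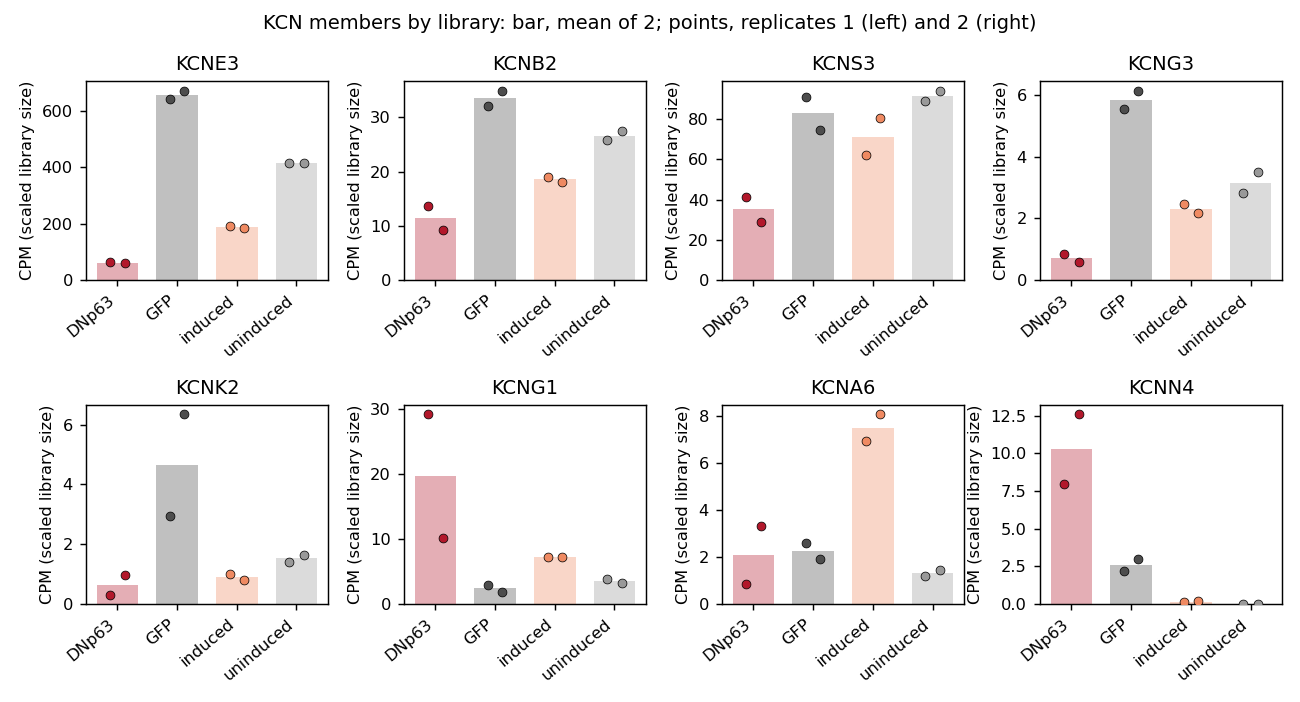
CPM of 8 members in each library, with a bar for the mean of 2 libraries and points for replicates 1 and 2, for constitutive DNp63, GFP, induced and uninduced cells. Each panel has its own linear axis from 0. KCNE3, KCNB2, KCNS3, KCNG3 and KCNK2 are lower in both DNp63 groups than in their controls, KCNG1 is higher in both, KCNA6 stands out in induced cells at 6.92 and 8.07 CPM, and KCNN4 is nearly absent from the inducible system.

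Constitutive DNp63 alone gave 6 called members, with 5 lower and 1 higher, where 8.16% of all tested genes were called, 3.99% as lower and 4.17% as higher. These are the 5 of the averaged comparison and KCNK2, a mechanosensitive two-pore domain channel. KCNK2 was tested only because it reached the filter in the GFP libraries, where it was high, so nothing is read from its place in that count. Without it there are 5 calls, 4 of them lower. KCNK2 had 1 and 5 counts in constitutive DNp63 libraries against 8 and 30 in GFP libraries, and 8 and 4 in induced libraries against 7 and 17 in uninduced libraries. Its constitutive log2 fold change was −2.79 ± 0.81 (edgeR, adjusted p = 0.0445). That call held in 1 of 8 leave-outs only, without GFP replicate 1. The adjusted p was 0.14 and 0.0544 without DNp63 replicates 1 and 2, 0.284 without GFP replicate 2, 0.0669 and 0.0676 without induced replicates 1 and 2, 0.0909 and 0.0908 without uninduced replicates 1 and 2, and 0.0615 with DESeq2, with values from −3.98 without DNp63 replicate 2 to −2.10 without GFP replicate 2. Fitted to its own 4 libraries, the constitutive comparison called 1 member, KCNE3.

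Induced DNp63 gave 1 called member, KCNE3, where 0.284% of all tested genes were called, 35 in number, and 0.0488% as lower. KCNA6, a voltage-gated pore subunit, had the next smallest p there. It was at 6.92 and 8.07 CPM in induced libraries against 1.21 and 1.46 CPM in uninduced libraries, and at 0.857 and 3.30 CPM with constitutive DNp63 against 2.59 and 1.91 CPM with GFP. The induced libraries thus stood above the other 6, and the constitutive groups overlapped. Its induced log2 value of 2.44 ± 0.58 did not pass the test (edgeR, adjusted p = 0.197). It passed when only the inducible libraries were fitted (0.000519), with no filter (0.00467) and without DNp63 replicate 1 (0.0432). The exons of KCNA6 lie wholly within those of GALNT8 on the same strand in GENCODE 29, so the counting could have divided or dropped its reads.

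**Figure D4:**
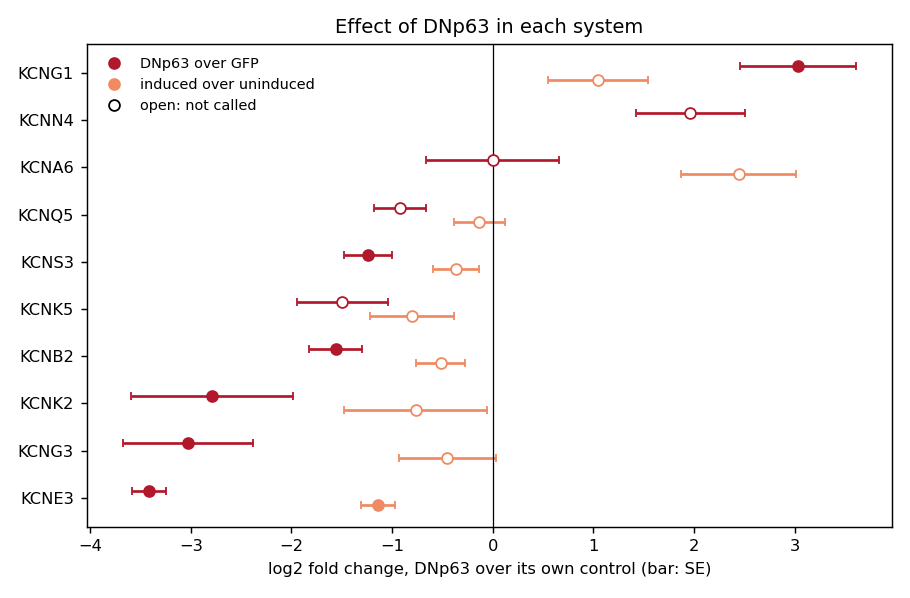
Log2 fold change with SE of 10 members for constitutive DNp63 over GFP and for induced over uninduced cells, with open symbols for values that did not pass the test. The induced value of KCNN4 is not drawn because the uninduced group has no count. The constitutive values reach from −3.41 for KCNE3 to 3.03 for KCNG1, and KCNE3 has the single filled induced symbol, at −1.14.

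Other voltage-gated subunits did not pass the averaged test. KCNH8, of the ether-a-go-go family, was at 6.00 and 10.5 CPM with constitutive DNp63 against 11.8 and 28.8 CPM with GFP, and at 13.2 and 15.7 CPM induced against 18.7 and 20.4 CPM uninduced (−0.88 ± 0.28; edgeR, adjusted p = 0.112). The averaged KCNH8 value moved with the GFP libraries, to −1.11 without GFP replicate 1 and −0.47 without GFP replicate 2. With all libraries kept, it was called with no filter on low counts (edgeR, adjusted p = 0.00429) and with a term for replicate number, the replicate block (0.0202). Its constitutive value of −1.31 ± 0.42 (0.0823) was called with no filter (0.00264), the block (0.0181) and DESeq2 (0.0483). KCNQ5, which carries a slow subthreshold current in neurons, was at 17.1 and 14.9 CPM with constitutive DNp63 against 27.0 and 33.5 CPM with GFP, and at 17.2 and 15.9 CPM induced against 16.3 and 19.8 CPM uninduced. Its averaged log2 value was −0.53 ± 0.18 (adjusted p = 0.126), with −0.92 ± 0.26 constitutive (0.0523) and −0.13 ± 0.25 induced (0.995). The constitutive KCNQ5 value passed with no filter (edgeR, adjusted p = 0.0328), with newer edgeR estimates (0.0496) and with the replicate block (0.0462), and also without GFP replicate 1. For KCNQ5 the GFP libraries stood above all others. KCNH2, a cardiac repolarising channel, had −0.68 ± 0.37, KCNC4 −0.40 ± 0.22, and the transient current subunits KCND2 and KCND1 −0.55 ± 0.37 and 0.80 ± 0.55, with adjusted p values from 0.362 to 0.486.

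Of 15 two-pore domain channels 3 were tested. None passed the averaged test with edgeR, 2 had an unadjusted p below 0.05 and DESeq2 called none. KCNK5, an acid-sensitive channel of epithelia, was at 3.14 and 2.13 CPM with constitutive DNp63 against 7.02 and 7.62 CPM with GFP, and at 2.72 and 3.15 CPM induced against 5.23 and 4.96 CPM uninduced. The groups did not overlap in either system, and the averaged log2 value was −1.15 ± 0.31 (adjusted p = 0.0544), with −1.50 ± 0.45 constitutive (0.0673) and −0.80 ± 0.42 induced (0.922). The averaged value passed with no filter (0.0306), a minimum count of 30 (0.0476), newer edgeR estimates (0.0388) and without DNp63 replicate 1 (0.0453). KCNK2 had an averaged value of −1.78 ± 0.54 (adjusted p = 0.0739), which passed without GFP replicate 1 (0.0491) and with no filter (0.0347). The other tested channel of this class, KCNK1, was at 43.7 and 28.1 CPM with constitutive DNp63 against 28.8 and 47.9 CPM with GFP, and at 34.95 and 36.8 CPM induced against 31.6 and 32.2 CPM uninduced (0.02 ± 0.20; adjusted p = 0.971).

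The 16 inward rectifiers had 3 tested members, and none was called by edgeR or DESeq2. In the averaged, constitutive and induced comparisons none had an unadjusted p below 0.05. Between the control groups KCNJ8 was lower in uninduced than in GFP cells, with a log2 value of −1.87 ± 0.86. Its unadjusted p there was 0.0495 (edgeR, adjusted p = 0.549). KCNJ11 and KCNJ8 encode the pore of ATP-sensitive potassium channels. KCNJ11 was at 4.0003 and 4.27 CPM with constitutive DNp63 against 8.50 and 4.87 CPM with GFP, and at 10.7 and 9.64 CPM induced against 10.5 and 7.97 CPM uninduced (averaged log2 value −0.24 ± 0.27; adjusted p = 0.701). KCNJ8 varied widely between libraries of one group, at 20.9 and 6.01 CPM with constitutive DNp63 against 7.02 and 4.45 CPM with GFP, and at 1.24 and 2.95 CPM induced against 0.201 and 2.43 CPM uninduced (0.81 ± 0.59; adjusted p = 0.51). KCNJ5 had 0.26 ± 0.40 (adjusted p = 0.792).

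Of 8 calcium- and sodium-activated channels KCNMA1 and KCNN4 were tested. Neither was called by edgeR or DESeq2 in the averaged comparison, and 1 had an unadjusted p below 0.05. KCNN4, the intermediate-conductance channel of epithelia and lymphocytes, was found mainly in the constitutive system. It had 28 and 65 counts with constitutive DNp63 and 6 and 14 with GFP, but 1 and 1 in induced and 0 and 0 in uninduced libraries. The ratio of summed counts of constitutive DNp63 to GFP, scaled for library size, was 3.99 (95% exact interval 2.44 to 6.83), and the log2 fold change of 1.97 ± 0.54 missed the threshold (edgeR, adjusted p = 0.0533). It passed with no filter (0.0234), a minimum count of 30 (0.0409) and newer edgeR estimates (0.0186), and in none of the 8 leave-outs. Against GFP, the scaled ratio of summed counts in uninduced cells was 0, with an upper 95% exact limit of 0.0986 that covers counting error only. That difference between the control groups did not pass the edgeR test (adjusted p = 0.165), and DESeq2 called it (0.016). Across the control groups edgeR called none of the 26 tested members and 0.00813% of all tested genes, 6 members had an unadjusted p below 0.05, and DESeq2 called KCNN4 alone.

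KCNMA1, the large-conductance pore, was at 53.7 and 28.3 CPM with constitutive DNp63 against 72.0 and 50.4 CPM with GFP, and at 63.9 and 60.8 CPM induced against 62.0 and 64.0 CPM uninduced. Its averaged log2 value was −0.30 ± 0.20 (edgeR, adjusted p = 0.488). Its auxiliary partner KCNMB4 was at 13.1 and 15.5 CPM with constitutive DNp63 against 8.13 and 11.4 CPM with GFP, and at 18.9 and 19.5 CPM induced against 13.1 and 16.6 CPM uninduced. KCNMB4 was higher without overlap in both systems, yet its averaged log2 value of 0.45 ± 0.20 missed the threshold (adjusted p = 0.264). Of the other auxiliary subunits, KCNAB2, which binds voltage-gated channels on the cytoplasmic side, had 0.01 ± 0.20 (adjusted p = 0.99). KCNMB3 had −0.66 ± 0.69 (adjusted p = 0.669), and 37.9% of its exon length overlaps PIK3CA on the opposite strand.

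Read by overlap alone, 12 of the 26 tested members lay below GFP with constitutive DNp63 and 4 above it, where 22% and 22.4% of all tested genes did. With induced DNp63, 8 lay below uninduced cells and 6 above them, where 24% and 22.9% of all tested genes did. In all, 7 of the 26 tested members were lower in both systems without overlap between the groups (KCNB2, KCNE3, KCNG3, KCNH8, KCNK2, KCNK5 and KCNS3), where 7.15% of all tested genes were. Another 4 were higher in both (KCNG1, KCNMB4, KCNN4 and KCNQ1), where 7.84% of all tested genes were. For KCNN4 this rests in the inducible system on 1 and 1 counts against 0 and 0, under the floor of 3 counts, and shows no rise there. KCNK2, counted among the 12 and the 7, passed the filter through the GFP libraries alone, so nothing is read from its place there. These counts cover only the members that passed the filter and carry no test.

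The 17 members with at least 10 counts that were not tested were KCNA4, KCNAB1, KCNAB3, KCNF1, KCNH3, KCNH6, KCNIP4, KCNJ14, KCNJ2, KCNJ3, KCNJ4, KCNK12, KCNK15, KCNK6, KCNK7, KCNK9 and KCNN2. Their sums over the 8 libraries ran from 11 to 53 counts. KCNH3, a brain channel of the ether-a-go-go family, had 1 and 0 counts with constitutive DNp63 against 10 and 5 with GFP, and 11 and 3 induced against 7 and 15 uninduced. Its scaled ratio of constitutive DNp63 to GFP was 0.0572 (95% exact counting interval 0.00136 to 0.372). It was the only one of the 17 whose interval lay below 1 in that comparison, while the intervals of 4 lay above 1. KCNIP4, a cytoplasmic auxiliary subunit, had 8 and 6 counts with constitutive DNp63 against 1 and 0 with GFP, so that its ratio was 12.02 (1.83 to 508). The silent subunit KCNF1 had 7 and 4 counts against 1 and 0, a ratio of 9.44 (1.37 to 406). KCNH6, also of the ether-a-go-go family, had 2 and 10 counts against 1 and 1, a ratio of 5.15 (1.15 to 47.4). The two-pore domain gene KCNK15 had 3 and 4 counts with constitutive DNp63 and 0 and 0 with GFP, with a lower limit of the ratio of 1.24. Summed counts induced against uninduced were 5 and 1 for KCNIP4, but 1 and 5 for KCNF1, 1 and 4 for KCNH6 and 1 and 4 for KCNK15. In that system the intervals of KCNA4 (1.08 to 49.5) and KCNK6 (0.0933 to 0.898) did not include 1. The share of all untested genes with such intervals was not computed. The numbers of members with intervals below or above 1 thus have no background, and no direction is read from them. Nothing is called from these intervals, which leave out the spread between libraries and are not adjusted for the number of genes.

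Genes that work with these channels but lie outside the symbol pattern mostly did not pass the test. Of 14 auxiliary and regulatory proteins of potassium channels 6 were tested and 1 was called, SGK1, a kinase that acts on channels and transporters of epithelia. SGK1 was at 25.4 and 59.0 CPM with constitutive DNp63 against 2.22 and 1.91 CPM with GFP, and at 9.76 and 8.26 CPM induced against 0.403 and 1.07 CPM uninduced. It rose by 3.90 ± 0.40 on the averaged log2 scale (edgeR, adjusted p = 0.000205) and passed in all 8 leave-outs. Of 22 potassium pumps and cation-chloride cotransporters 9 were tested and none was called by edgeR or DESeq2. In the averaged comparison 1 had an unadjusted p below 0.05, and the list median was −0.21. Among 14 tested voltage-gated sodium and calcium and HCN channels, of 36 listed, 1 was called. This was CACNA1E, a neuronal calcium channel, at 12.0009 and 33.9 CPM with constitutive DNp63 against 235 and 186 CPM with GFP, and at 63.0 and 75.3 CPM induced against 193 and 185 CPM uninduced. CACNA1E had an averaged log2 fold change of −2.31 ± 0.24 (edgeR, adjusted p = 0.000465). Of 12 tested chloride channel and related genes, of 14 listed, 1 was called higher in the averaged comparison, CLCA2, and none lower. CLCA2 was called with constitutive DNp63 (edgeR, adjusted p = 0.00068) but not with induced DNp63 (0.128).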

How the data were processed

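The authors deposited a table of raw counts, whole numbers for each gene and library. TopHat2 2.1, HTSeq, SAMtools, DESeq2 and the build hg19 (GRCh37) are named, per the submitters' processing notes. Annotation, filters and strand setting: not given in the sources used here. Genes were kept by filterByExpr (minimum count 10), which left 12303 of 26760, and scaled by TMM. All 4 groups were fitted together, sharing 1 estimate of the spread, in edgeR 4.0.16 (quasi-likelihood, legacy estimates, R 4.3.3). Tests were two-sided with Benjamini-Hochberg adjustment. SEs came from the fitted means, dispersions and quasi-dispersions. Log2 CPM used a prior count of 2. Groups with few counts are given as scaled ratios of summed counts with exact intervals, which cover counting error only. The averaged test alone was tried on simulated counts with known changes. These had a common spread in all groups, the same change in both systems and no changes in low genes. The trial does not cover the other comparisons or low members. The members, lists and tests were chosen with earlier results of these data known. Named were TP63, every called member, KCNE3, the 12 tested members of highest CPM, the 2 with most counts in each role, and untested members with at least 10 counts. Likewise named were up to 4 called members of each further list and the 3 members most like KCNE3. Other tested members, some silent members and the untested members given values were chosen after their values were seen. Alternatives were RLE scaling, no filter, a minimum count of 30, DESeq2 1.42.0, newer edgeR estimates, a replicate block, single-system fits and each library left out. Values of some members are not reported here. The 2 libraries of every group differed by more than sampling noise. Chi-square per degree of freedom was 26.7 with constitutive DNp63, 19.2 with GFP, 5.41 induced and 3.93 uninduced.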

Additional observations from a re-analysis of the deposited data

Results flagged for a closer look

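KCNE3 differed between the systems by the interaction contrast: the induced minus constitutive log2 effect was 2.27 ± 0.24 (SE, n = 2 per group; edgeR, adjusted p = 0.00456), with an effect of −1.14 in the inducible system and −3.41 in the constitutive system. In both systems 2 of 2 DNp63 libraries lay below both controls. The value ranged from 2.23 to 2.32 over 14 alternatives, with adjusted p values from 3.9e-12 to 0.119, and was called in 10 of them.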

How the results depend on the processing

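KCNE3 was called lower in the averaged and the constitutive comparison under every alternative run, with averaged values from −2.30 to −2.25 and constitutive values from −3.46 to −3.37. Counts of called members moved by over 1.5 times as follows. With no filter on low counts they were 8 averaged, 10 constitutive, 2 induced and 1 between the control groups. With only the 4 libraries of the contrast they were 1 constitutive and 2 induced. DESeq2 called 1 between the control groups. With each library left out the counts ranged from 1 to 7 averaged, 3 to 8 constitutive, 0 to 2 induced and 0 to 2 for the difference between systems, and were 0 throughout for the control groups. Over all tested genes, leaving out a library gave 224 to 1112 averaged calls, 451 to 1398 constitutive, 2 to 100 induced, 0 to 449 for the difference and 0 to 45 between the controls, DESeq2 gave 110 induced, 259 difference and 57 control calls, no filter gave 1372, 1791, 242, 558 and 245 for the 5 comparisons, and single-system fits gave 275 constitutive, 771 induced and 0 control calls. Signs changed only in values that never passed: KCNA6 in the constitutive comparison was 0.00208 with RLE scaling, 0.0289 with a minimum count of 30, 0.0661 with newer estimates and −1.33 to 0.59 without 1 library, and the averaged KCNAB2 value was −0.00963 with no filter, −0.00206 with the replicate block and −0.21 to 0.17 without 1 library. Without 1 library the averaged values of KCNK1 and KCNV1 ranged from −0.15 to 0.24 and −0.64 to 0.0479, and the induced value of KCNQ5 from −0.26 to 0.0235. The cause was not tested. Same-numbered libraries share a vector in the constitutive system and deviated together there (correlation 0.22), but not in the inducible system (−0.03). The main fit left out this pairing by vector, and the replicate block takes it in. With the replicate block 6 averaged, 8 constitutive, 1 induced, 1 difference and 0 control calls were made among members, and 1040, 1400, 87, 270 and 65 over all genes. The block added KCNH8 to the averaged calls (adjusted p = 0.0202) and KCNH8 (0.0181) and KCNQ5 (0.0462) to the constitutive calls. Depth limits the silent members: 3 counts are 0.292 to 1.11 CPM in a library.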
